A study of Zea mays with 27 samples.

Results

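GRF2 is the name that RefSeq gives as a synonym of the maize gene LOC100125640. It was represented on the arrays by 5 cDNA spots, numbered 3306, 9354, 9356, 10855 and 12496 in the deposited table. They were chosen as all spots that the platform's gene table assigns to this gene and to no other, which makes GRF2 1 of 532 genes and its spots 5 of 1607 gene-named probes. GRF2 itself was selected on the width of these spots' log ratios over the arrays and on their agreement, so its values are given as a description and carry no test.

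The study profiled above-ground tissue of 14-day-old maize seedlings of the F1 hybrid, made with Mo17 as seed parent and B73 as pollen parent, and of the inbred lines B73 and Mo17. Each RNA sample was a pool of 6 seedlings of 1 genotype, seed came from 3 ears per genotype, and 9 of 10 replications were kept. Each replication had 3 arrays with 2 dyes, so that 27 arrays, S1 to S27, compared the genotypes in pairs. The genotype is named for a single channel in the labels used here, F1 in Cy3 on S1. No array could therefore be placed in a comparison of F1, B73 and Mo17, and all values below describe how GRF2 varied from array to array.

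The working label for this gene was 14-3-3 regulatory factor, and the names in the tables go against it. In maize the letters GRF are used both for general regulatory factors, which are 14-3-3 proteins, and for growth-regulating factors. RefSeq listed 18 maize genes with a GRF symbol followed by a number. Only 2 of them also carried a GF14 name, which marks 14-3-3 proteins, namely LOC542291 (GF14-6, grf1) and LOC100279512 (GF14-12, also written grf2). LOC100125640 was not one of these 2, although it shares the name GRF2 with LOC100279512. Neither table holds a description, so the gene is called GRF2 here and is not assigned to the 14-3-3 family.

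As background, 14-3-3 proteins are dimeric adaptors that bind phosphorylated partners such as nitrate reductase and the plasma membrane proton pump. Growth-regulating factors are plant transcription factors with a DNA-binding WRC domain. They act with GIF coactivators, are held down by a microRNA, and are known for promoting cell division in growing leaves.

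Values are log ratios of the 2 channels of an array, converted to the log2 scale and set relative to the array's median. A value of 1 thus means a ratio 2-fold above that of the typical probe. This holds if the deposited values are natural logs with no constant multiple, as they were read here. The values that recur on an array matched natural logs times 2 better. On that reading every log2 value below would be divided by 2, and fewer arrays and probes would reach a size or spread of 1. Ranks and correlations would stay the same. No source states which dye is the numerator, so above and below have no settled meaning between arrays. Over the 351 pairs of arrays the correlation across probes ran from -0.37 to 0.54, and it was below -0.3 in 5 pairs. The arrays had interquartile ranges from 0.40 (S9) to 1.57 (S19), with a median of 0.75. Arrays S1 to S15 and S16 to S27 differed in how often a single value was repeated over many probes, and values are given within both sets where this could matter. Ratios from pooled tissue also cannot tell fewer cells of a type from less RNA per cell.

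GRF2 lay farthest above the array median on S11, S20, S21 and S22. On S20, spots 3306, 9354, 9356, 10855 and 12496 read 2.90, 0.96, 2.36, 1.31 and 4.47 on the log2 scale. On S22 they read, in the same order of spots, 2.51, 0.15, 2.49, 2.19 and 3.62. All 5 were above the median on both arrays, with means of 2.40 ± 1.40 and 2.19 ± 1.26 (SD over the 5 spots).

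On S11 the 5 spots read 2.12, 0.15, 1.51, 6.52 and 2.17, and on S21 they read 0.75, 2.24, 2.68, 3.91 and 1.53. The mean on S11, 2.49 ± 2.39 (SD over the 5 spots), was the highest of any array. It was a 5.63-fold ratio if the deposited values are natural logs with no constant multiple, and less with a multiple of 2. That mean owed most to spot 10855, whose 6.52 was the highest value of any GRF2 spot. On S21 the mean was 2.22 ± 1.20. Further arrays with a mean of at least 1 were S4 (1.11 ± 0.31), S10 (1.27 ± 1.54), S13 (1.36 ± 0.45) and S19 (1.53 ± 0.54). On S10 the SD over spots exceeded the mean, because spot 10855 read 3.77 and spot 12496 read 0.11.

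The GRF2 mean was below the array median on 9 arrays and above it on 18. On the 9 arrays the SD over the 5 spots ran from 0.12 to 0.99. The lowest mean was -1.07 ± 0.99 on S15, where spots 3306, 9354, 9356, 10855 and 12496 read -2.03, 0.18, -1.79, -0.21 and -1.53. On S14 the mean was -0.99 ± 0.87, from readings of -1.78, -0.32, -1.06, 0.08 and -1.89. On S16 it was -0.78 ± 0.87, from -1.61, -0.27, -0.20, 0.02 and -1.83. Spots 3306 and 12496 were low on all 3 of these arrays and spot 9356 on S14 and S15, while spots 9354 and 10855 lay between -0.32 and 0.18. The other 16 arrays, not named so far, had means from -0.55 (S6) to 0.66 (S24).

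**Figure D1:**
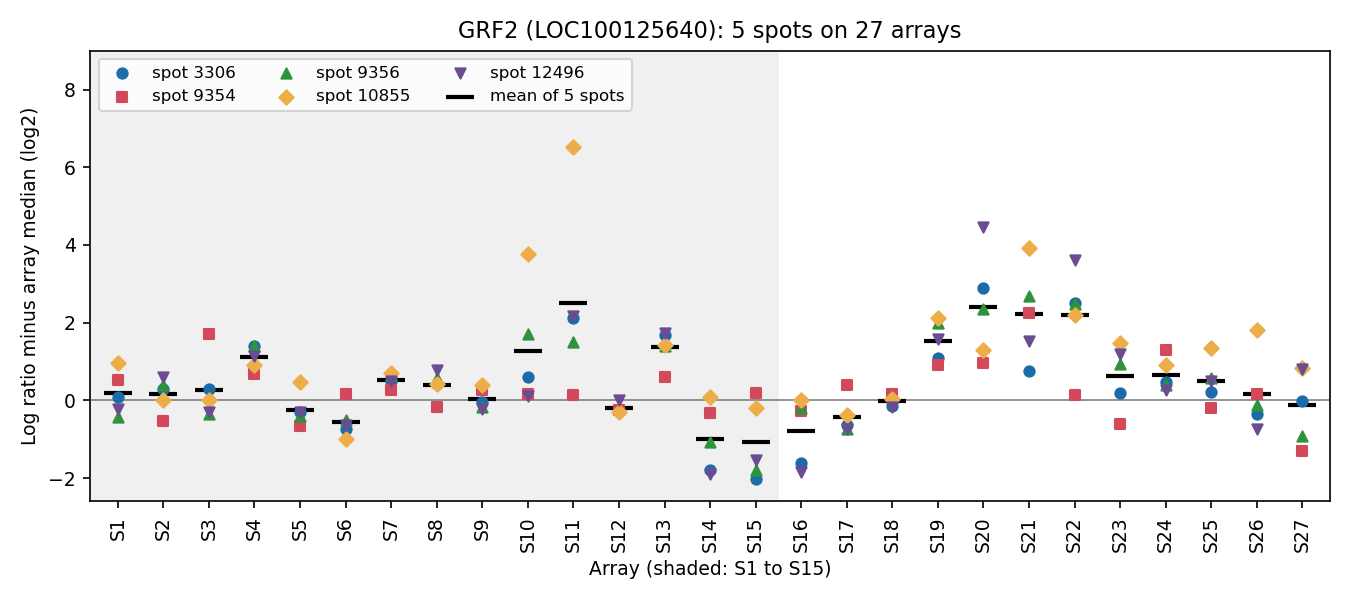
Values of the 5 GRF2 spots on each of the 27 arrays, as log2 ratios minus the array median (vertical axis). Coloured symbols are single spots, black bars their mean, and shading marks S1 to S15. The means on S11, S20, S21 and S22 lie between 2.19 and 2.49, and the lowest mean is -1.07 on S15.

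All 5 spots were above the array median on 10 arrays (S4, S7, S10, S11, S13, S19, S20, S21, S22 and S24), and on 0 arrays were all 5 below it. Among the 15 other genes with exactly 5 probes, the number of arrays with all probes on 1 side had a median of 3 and ran from 0 to 15. The gene with 15 was mbd106. Relative to the 259 genes with at least 2 one-gene probes, called multi-probe genes below, the GRF2 mean had rank 3 from the top on S19 and S22 and rank 4 on S11. By size alone, which does not depend on the numerator, its rank was 9 on S19, 3 on S22 and 6 on S11. The size of the GRF2 mean reached 1 on 9 arrays, against a median of 1 array over multi-probe genes. Larger values of GRF2 lay to some extent on arrays with wide ratios in general. The size of its mean and the interquartile range of the array had r = 0.40 and rho = 0.47 over the 27 arrays, and r = 0.26 without S19 and S21, which had the most extreme ranges. When all arrays were scaled to the same interquartile range, the mean on S19 was 0.73, and 6 arrays had a mean of at least 1 in size. With each printing block centred instead, the mean was 0.83 on S19 and 1.72 on S21, and 8 arrays reached 1 in size.

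Most of the GRF2 spots varied to nearly the same extent. The spread of a spot, its 90th minus its 10th percentile over the 27 arrays, was 2.94 for spot 3306, 2.95 for spot 9356, 2.96 for spot 12496 and 3.06 for spot 10855. Spot 9354 stood apart with 1.65. All 5 spreads were at least 1, which held for 65% of gene-named probes and 79.2% of all probes, so that this count alone says little. The median over gene-named probes was 1.17, and the 4 wide spots exceeded 91.8% to 92.4% of these probes, whereas spot 9354 exceeded 74% of them. All probes together were wider, with a median of 1.54. Of these the 4 wide spots exceeded 81.6% to 83.4%, and spot 9354 exceeded 53.7%. The median spread of the GRF2 spots, 2.95, ranked first among the 79 genes with at least 5 probes, followed by 2.52 for LOC606483 (PPCK1), a kinase of phosphoenolpyruvate carboxylase. Among all 259 multi-probe genes it ranked 19th. This spread changes if the ratio of an array is turned, whereas the root mean square over arrays does not. The GRF2 spots had root mean squares from 0.77 (spot 9354) to 1.91 (spot 10855), with a median of 1.23, against a median of 0.56 over gene-named probes. By that measure GRF2 had rank 3 of the 79 genes and rank 42 of the 259, so its first place did not hold. The root mean square also counts a constant distance from the array median. The change in rank can therefore not be put down to direction alone.

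The single spots had different ranges. Spot 3306 ran from -2.03 (S15) through a median of 0.22 to 2.90 (S20). Spot 12496 ran from -1.89 (S14) through 0.25 to 4.47 (S20), and spot 9356 from -1.79 (S15) through 0.39 to 2.68 (S21). These 3 spots reached their lowest values on S14 or S15 and their highest on S20 or S21. Spot 10855 ran from -1.0 (S6) through 0.83 to 6.52 (S11), and spot 9354 from -1.29 (S27) through 0.17 to 2.24 (S21). Spot 10855 was above the array median on 21 arrays and below it on 4, and the remaining 2 of its values, on S2 and S3, were the repeated value of the array. These were the only repeated values among the 135 values of GRF2. The other spots were above on 15 to 18 arrays.

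Within S1 to S15 the spreads of spots 3306, 9354, 9356, 10855 and 12496 were 2.93, 1.09, 2.31, 3.09 and 2.66. Within S16 to S27 they were 2.97, 1.83, 3.15, 2.16 and 4.16. Spot 9354 was the narrowest in both sets, while spot 10855 was the widest in the first and the second narrowest in the second.

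The GRF2 spots agreed over arrays in unequal measure. Spots 3306 and 12496 had r = 0.95 and rho = 0.91 over the 27 arrays, and their difference had an SD of 0.52 on the log2 scale. Spot 9356 followed both, with r = 0.85 against spot 3306 and 0.83 against spot 12496. Spot 10855 had r = 0.67 with spot 9356, 0.58 with spot 3306 and 0.51 with spot 12496. Arrays are not independent points, since each RNA pool was used on more than 1 array of its replication, and so no p-value is given for any correlation.

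Spot 9354 agreed least with the rest. Its r was 0.43 with spot 9356, 0.34 with spot 3306, and 0.24 with both spot 10855 and spot 12496. Against the mean of the other 4 spots it had r = 0.34 and rho = 0.30, where the other spots had r from 0.60 (spot 10855) to 0.90 (spot 9356). Spots 9354 and 9356 lie in the same run of 400 spots, read here as a printing block. Spot 9354 had r = 0.56 with the median of that block over arrays, and spot 9356 had 0.36. For the other 3 spots the r with the median of their own block was between 0.0092 (spot 12496) and 0.17 (spot 10855). The part of the printing position in the readings of spot 9354 was not tested beyond this, and after centring each block its r was 0.37 with spot 3306 and 0.33 with spot 9356.

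**Figure D2:**
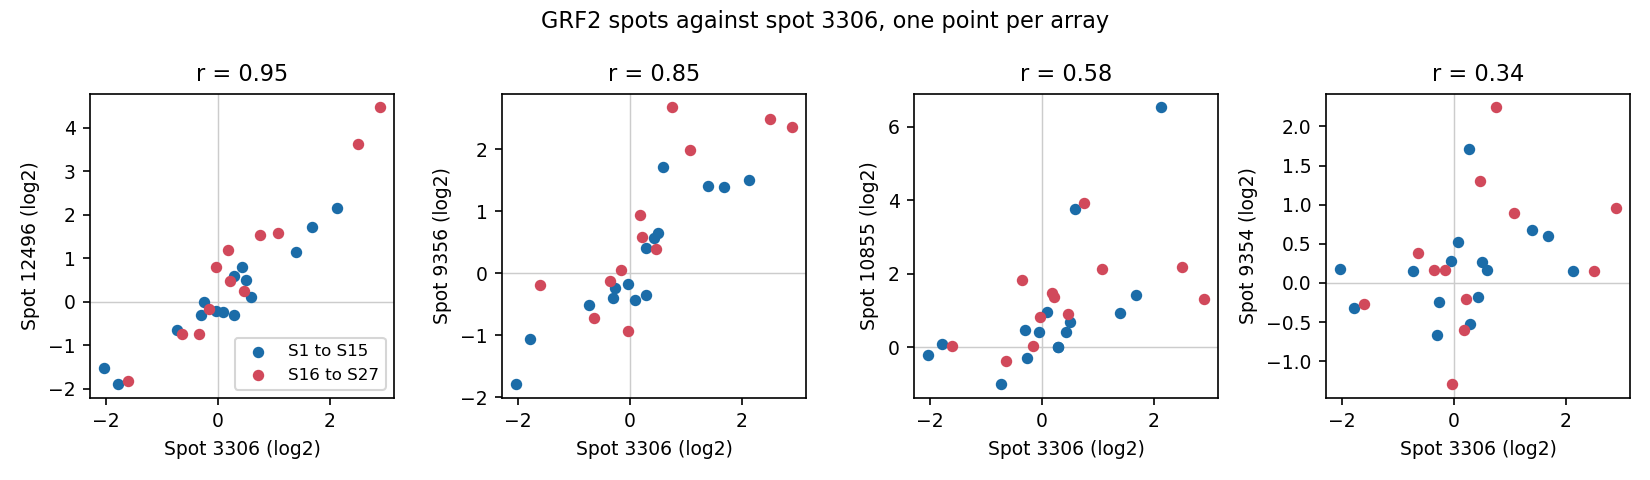
Spot 3306 (horizontal axes) against spots 12496, 9356, 10855 and 9354 (vertical axes) on the log2 scale, 1 point per array, coloured by set of arrays. The points tighten round a line for spot 12496 (r = 0.95) and scatter for spot 9354 (r = 0.34). The vertical scales differ between panels.

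Over the 10 pairs of GRF2 spots the mean r was 0.56 ± 0.26 (SD over pairs), and 6 pairs had r of at least 0.5. Such an r was found in 17.3% of probe pairs of the same gene, leaving out MNB1b, whose probe pairs outnumber those of all other genes, and in 4.9% of probe pairs of different genes. The mean r of GRF2 ranked 12th of 259 multi-probe genes, whose median was 0.0848 (quartiles -0.0349 and 0.22). Among the 79 genes with at least 5 probes it had rank 3, after LOC542367 (GAPC1), a cytosolic glyceraldehyde-3-phosphate dehydrogenase, with 0.65 and LOC542441 with 0.564. The value for GRF2 was 0.563.

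The agreement of the GRF2 spots was present in both sets of arrays, with a mean r of 0.53 in the set S1 to S15 and 0.61 in the set S16 to S27. Within these sets spots 3306 and 12496 had r = 0.96 and 0.98. Without S11 and S20, which lay farthest from the median of the GRF2 mean, the mean r was 0.57. The uncentred correlation, which stays the same whichever way the ratio of an array is turned, had a mean of 0.61 over the 10 pairs and also ranked 12th of 259. With each printing block centred the mean r was 0.55 and ranked 21st of 259, where the median of the genes was 0.13. Without spot 9354 the mean r over 6 pairs was 0.73, and the 4 pairs with it averaged 0.31.

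**Figure D3:**
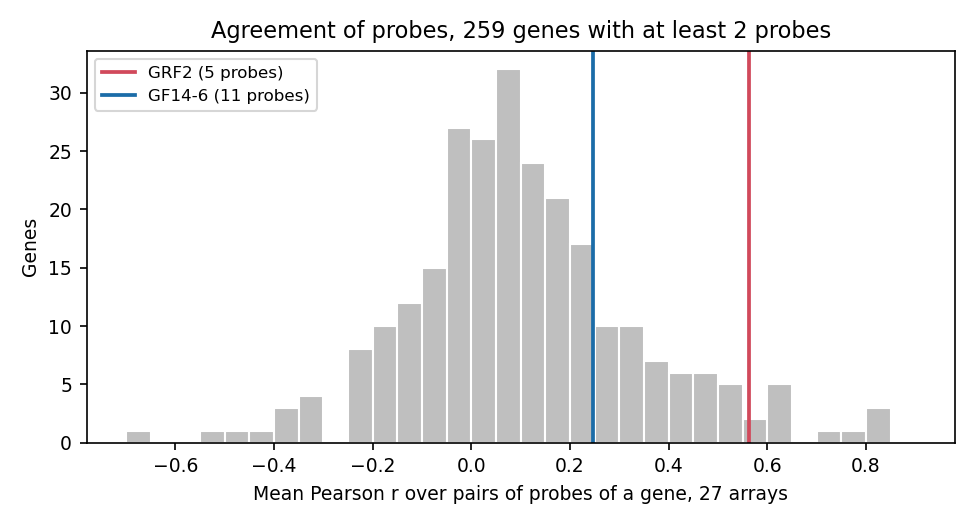
Number of multi-probe genes (vertical axis) by the mean Pearson r over pairs of their probes on 27 arrays (horizontal axis). Lines mark GRF2, at 0.56, and the 14-3-3 gene GF14-6, at 0.25, beside a median of 0.0848 over the 259 genes.

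The 1 gene with probes that could be told as 14-3-3 by name did not share the GRF2 pattern. Probes without a gene name could not be searched for others. LOC542291 (GF14-6) had 11 probes, with spreads from 0.55 to 1.70 and a median of 1.07, of which 7 reached 1. Its mean had r = -0.16 and rho = -0.22 with the GRF2 mean. The 55 pairs of a GF14-6 probe with a GRF2 spot had a median r of -0.17, from -0.58 to 0.42, while the 55 pairs among GF14-6 probes had a median r of 0.24. Other genes with a GRF symbol and a probe were LOC100101537 (GRF4), LOC100101540 (GRF8) and LOC100125643 (GRF13), with 4 probes in all. Their r with the GRF2 mean was -0.24, -0.20 and -0.26, and their rho was -0.49, -0.20 and -0.44. The 2 probes of GRF13 had spreads of 2.66 and 2.89, close to those of GRF2, but an r of 0.034 with each other.

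A list of plant proteins known to bind 14-3-3 proteins covered 12 classes, of which 7 had a probe, for 13 genes and 45 probes. Since GRF2 may be no 14-3-3 gene, the list is given for completeness. The r of a gene's mean with the GRF2 mean had a median of 0.081 and lay below 0 for 6 genes and above 0 for 7. Its highest value was 0.55, for the 1 probe of LOC542048 (mha2), a plasma membrane proton pump, and the second pump gene LOC542052 (mha4) had -0.34. The lowest was -0.38, for GAPC1, whose 6 probes all lay between -0.49 and -0.045. LOC542718 (GAPC2) had -0.066 and LOC542333 (GAPC3) -0.16. The sucrose synthases LOC542365 (sh1) and LOC542247 (sus1), which cleave sucrose, had -0.29 and -0.23. The glutamine synthetases LOC542520 (GLN6) and LOC542214 (gln4), which assimilate ammonium, had 0.40 and 0.081. The starch branching enzymes LOC542238 (ae1) and LOC542315 (sbe1) had 0.40 and 0.24. LOC542526 (CDPK2), a calcium-dependent protein kinase, had 0.33 and the ascorbate peroxidase LOC542476 (apx2), which removes hydrogen peroxide, had 0.088. Of the 45 probes 2 had r of at least 0.5, against 10.7% of all other probes on the arrays. No list of partners was drawn up for growth-regulating factors. LOC100101546 (GIF3), named like their coactivators, had 3 probes, with r from -0.49 to 0.55 with the GRF2 mean. The mean of these 3 probes had r = 0.26 and rho = 0.32.

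The multi-probe gene most like GRF2 was LOC542704 (ohp1), a bZIP factor known as a partner of Opaque2, with r = 0.84 and rho = 0.83 between mean profiles over the 27 arrays. By the uncentred correlation ohp1 was also the most like, with 0.85, and 8 of the 10 genes named below stayed among the 10 highest. The 2 that did not were thi2, at rank 11 with 0.67, and LOC542641, at rank 12 with 0.65. LOC541700 (pgd2), a 6-phosphogluconate dehydrogenase of the pentose phosphate pathway, had r = 0.82 and rho = 0.73. On S20, S22 and S15 the mean of pgd2 read 1.74, 2.09 and -1.23, and that of ohp1 read 0.93, 1.14 and -0.81. These are the arrays on which GRF2 read 2.40, 2.19 and -1.07, so the 3 genes leaned the same way there. Such leaning is built into the choice of ohp1 and pgd2 by their r with GRF2. It was not seen on every array with a high GRF2 mean. On S19, where GRF2 read 1.53, ohp1 read 0.25 and pgd2 -0.40. On S10, where GRF2 read 1.27, ohp1 read -0.017 and pgd2 0.57. In ohp1 and pgd2 both probes had r of at least 0.5 with the GRF2 mean, from 0.64 to 0.76 for ohp1 and from 0.73 to 0.81 for pgd2.

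For 8 of the 10 multi-probe genes most like GRF2, at least 1 probe did not follow. LOC542257 (zap1), a MADS-box gene of the APETALA1 type, had r = 0.83 between means, with single probes at 0.88, 0.63, -0.30 and -0.40. LOC732821 (PPP2R5B), a regulatory subunit of protein phosphatase, had r = 0.81 between means, from probes at 0.89 and -0.22. For mbd109, of the methyl-CpG-binding domain family, r was 0.78 between means and 0.90, 0.17 and 0.04 for its probes. LOC100125638 (GBSSIIa), a granule-bound starch synthase, had 0.71 between means and probes from -0.087 to 0.87. LOC542405 (MFS18) had 0.71 between means, LOC541855 (igl1), an indole-glycerol phosphate lyase, had 0.70, and LOC542715 (thi2), of thiamine synthesis, had 0.70. Each of these 3 had 1 probe above 0.7 and 1 between -0.12 and -0.052. LOC542641, with 15 probes, had 0.69 between means, from 4 probes of at least 0.5 and 11 between -0.47 and 0.32.

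In 9 of the 10 genes the probe most like GRF2 was also the gene's widest probe, which weighs most in a mean. Of their 38 probes, 17 had r of at least 0.5 with GRF2 and 18 had r below 0.2. Among the 258 other multi-probe genes, 24 (9.3%) had r of at least 0.5 between means and 9 (3.49%) had at least 0.7. The median was -0.058, with 5th and 95th percentiles of -0.52 and 0.65. Without S11 and S20 the r of the 10 genes ran from 0.61 (thi2) to 0.79 (ohp1). Within S1 to S15 the r was 0.88 for ohp1, 0.88 for pgd2 and 0.81 for zap1, and in the set S16 to S27 it was 0.82, 0.73 and 0.84 in the same order of genes. The igl1 mean had 0.52 in the first set and 0.82 in the second, and the thi2 mean had 0.87 in the first and 0.52 in the second.

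The 3 multi-probe genes with the lowest Pearson r were mbd115 (r = -0.62, rho = -0.77), tb1 (r = -0.61, rho = -0.63) and hsp70-4 (r = -0.58, rho = -0.58). This choice rests on the direction of the ratios: by the uncentred correlation they had ranks 244 (mbd115), 247 (tb1) and 254 (hsp70-4) of 258, with -0.52, -0.52 and -0.59. The 3 lowest were then LOC542356 (mek1) with -0.65, LOC542421 (CNX) with -0.62 and LOC541675 (tip1), an aquaporin of the vacuole membrane, with -0.62. The names tb1 and hsp70-4 are those of the platform's table. All 12 probes of mbd115 had a negative r with the GRF2 mean, from -0.64 to -0.14. Of the 12 probes of hsp70-4, named as a chaperone of the heat shock family, values ran from -0.74 to 0.23. The pair of tb1 probes had -0.55 and -0.32. None of the 258 genes had r of -0.7 or lower.

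**Figure D4:**
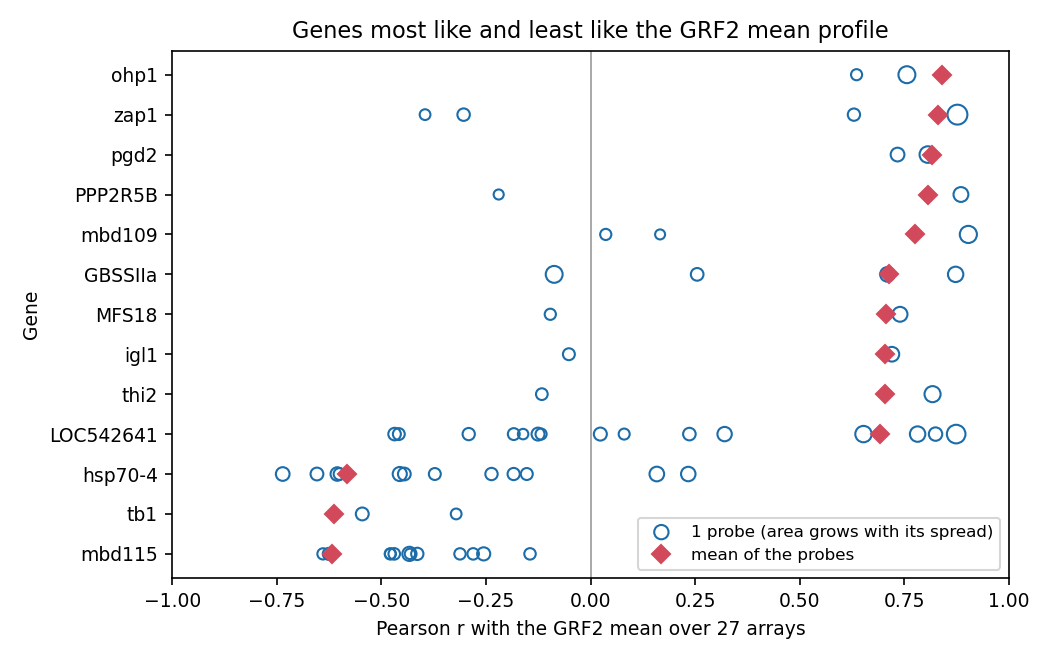
Pearson r with the GRF2 mean over 27 arrays (horizontal axis) for the 10 multi-probe genes most like it and the 3 with the lowest r (rows). Diamonds are the mean of a gene's probes and circles are single probes, larger for a wider spread. Both probes of ohp1 and pgd2 lie to the right, between 0.64 and 0.81, while 8 of the 10 genes also have probes below 0.5.

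GRF2 followed a pattern that many probes shared. Of the 18298 other probes, 605 (3.31%) had r of at least 0.8 with the GRF2 mean and 0 had r of -0.8 or lower. Of these 605 probes 570 are not gene-named here and 35 are, where 16696 of all 18303 probes are not gene-named. The 35 are 2.18% of the other gene-named probes, against the 3.31% of all other probes. The 605 probes lay in all 48 printing blocks, with at most 27 in a block. A spread of at least 1 was reached by 99.5% of them, against 79.2% of all probes, and their median spread was 2.77. At r of at least 0.5 there were 1949 probes (10.7%), against 694 at -0.5 or lower. These counts use Pearson r and so rest on the direction of the ratios, which is not settled. They were not repeated with the uncentred correlation.

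The first principal component of the other probes, after removal of probe medians, held 12.2% of their variance. The GRF2 mean had r = 0.90 and rho = 0.90 with the weights of the arrays on this component, and r = 0.86 without S20 and S22. In size of r it ranked second of 259 multi-probe genes, after pgd2 with 0.901 and just ahead of PPP2R5B with 0.880, where GRF2 had 0.896. The median of the genes was 0.25. By spot the r was 0.92 for spot 3306, 0.88 for spot 12496, 0.85 for spot 9356, 0.65 for spot 10855 and 0.22 for spot 9354. Of the 10 genes most like GRF2, 9 were among the 20 others with the largest r in size with this component. This follows largely from their choice by r with GRF2, which itself had r = 0.90 with the component.

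**Figure D5:**
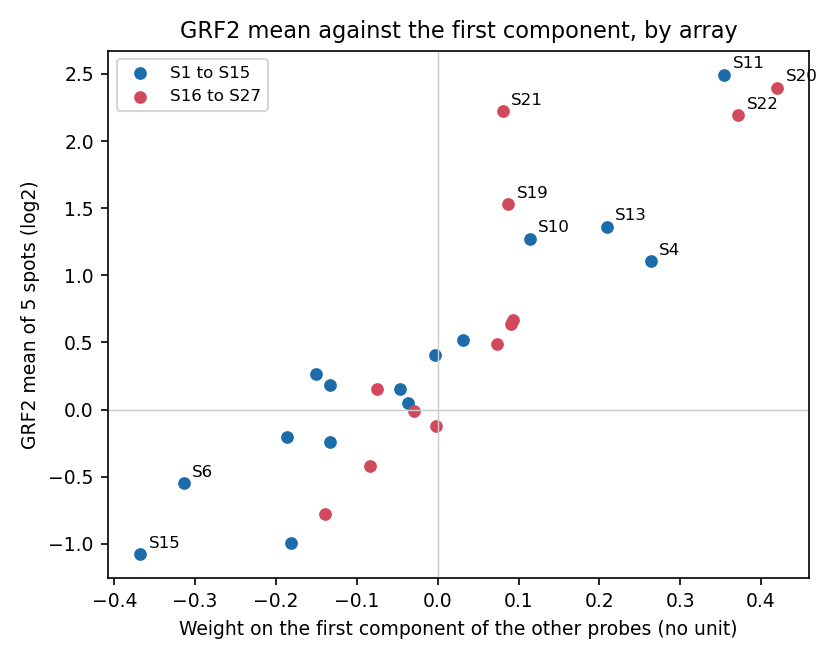
Mean of the 5 GRF2 spots on the log2 scale (vertical axis) against the weight of each array on the first component of the other probes (horizontal axis, no unit), 1 point per array and coloured by set. The weights run from negative on S15 and S6 to the highest on S20, S22 and S11, and r is 0.90. S21 and S19 have GRF2 means of 2.22 and 1.53 at weights of 0.0802 and 0.0875.

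S21 and S19 departed from this relation, with weights of 0.0802 and 0.0875 beside GRF2 means of 2.22 and 1.53. The first 3 components were looked at in each of 5 settings, after the data were seen, and the one with the largest r differed between the sets. Within S1 to S15 the GRF2 mean had r of 0.81 in size with the first component. Within S16 to S27 it had 0.42 with the first, which was mostly S27, and 0.84 with the third. With each printing block centred it was 0.92 with the first. Without removal of probe medians, and with the uncentred correlation, it was 0.20 with the first component (12.4% of the variance) and 0.89 with the second (11.4%). What the shared pattern stands for was not tested, because the genotypes and dyes of the channels are not named in the labels used here.

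After the first component was taken out of every profile by least squares, spots 3306 and 12496 had r = 0.74, the highest of the 10 pairs. The other pairs ran from -0.17 (spots 10855 and 12496) to 0.48 (spots 9354 and 9356). The mean r over the 10 pairs was 0.25, against a median of 0.10 over multi-probe genes treated in the same way. The r of the 10 like genes with GRF2 then ran from -0.0019 (thi2) to 0.46 (LOC542641), with 0.26 for ohp1, 0.31 for zap1 and 0.047 for pgd2.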

How the data were processed

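Per the labels, RNA of 14-day-old seedlings was labelled with Cy3 or Cy5 and hybridized to cDNA arrays. The deposited series table held 19200 spots on 27 arrays, 897 of them empty, and 18303 with a value on every array. Its values were read as natural log ratios deposited by the authors. The base was inferred from values that recur on an array: their distances matched 2 times the natural log of an integer up to 10 (tolerance 2e-05) in 106 pairs, where shifted distances matched in 5.0. With base 2 the numbers were 3 and 3.88. Single natural logs matched in 33 pairs, against 15.25 at shifted distances. The recurring values thus matched a constant multiple of 2 better than none, but the values were read without it. Only these distances and single logs were tried. A multiple of 2 would divide every log2 value by 2 and lower the fold. For scanner, background correction, normalization and numerator, the sources used here give nothing. The series title marks a low scan. No signal was used, so the labelled tissue was not checked against leaf markers, and precision rests on the number of arrays.

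Division by the natural log of 2 gave log2 values, which were centred on the median of each array with Python 3.11.15, numpy 2.4.6 and pandas 2.3.3. Genes came from the platform's table (1630 probes, 23 with several genes), with names updated through RefSeq for Zm-B73-REFERENCE-NAM-5.0, which held 515 of 532 genes. Members, lists and rules were chosen with earlier results of these data known. Named were the 10 multi-probe genes with the highest r with GRF2 and the 3 with the lowest, all GRF and 14-3-3 genes, and all partners with a probe. Other genes named were chosen after their values were seen. The calculations were tested on simulated data. Alternatives were other centring, scaling, block centring, repeated values as missing, sets of arrays, left-out arrays and other measures. Spot sequences were not used, so shared or cross-hybridizing sequence was not assessed.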

Additional observations from a re-analysis of the deposited data

How the results depend on the processing

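The uncentred correlation, the root mean square, the removal of spot 9354 and the removal of the first component were chosen after seeing the data. The median spread of the GRF2 spots was 1.42 with the interquartile range in place of the percentile distance, which is narrower by construction, beside 0.56 over gene-named probes, and the root mean square had a median of 1.23, on a scale of its own. It was 2.68 to 3.07 with an array left out. The mean r over pairs of spots was 0.25 with the first component removed, and 0.528 to 0.591 with an array left out. Of the 10 genes most like GRF2, 6 stayed among the 10 highest within S16 to S27, 4 when 3 probes were required per gene (the other 6 have fewer), 3 when single-probe genes were added, and 1 with the first component removed. The number was 7 to 10 with an array left out. The r of LOC542641 was -0.0112 when the median of the probes was used for both it and GRF2. The r of thi2 was -0.0019 with the first component removed. The cause was not tested where none is given. Of the other values without a left-out array, 33 of the main results and 210 of single spots, arrays or genes stayed within the SD over spots or pairs, or within 1.5 times a count, and 24 single values moved further without changing sign. No paired analysis was possible because the labels give the arrays no genotype groups or replicate numbers.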

Other observations

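Genes with a single probe could not be checked for agreement, and 18 of 273 had r of at least 0.7 with the GRF2 mean over the 27 arrays. The highest were LOC542198 (r = 0.93, spread 3.66), LOC542014 (PIP1-5), a plasma membrane aquaporin, with r = 0.89 and a spread of 2.29, and LOC542245 (mgs2) with r = 0.84 and a spread of 2.25. LOC542128 (yab14), of the YABBY family known from leaf development, had r = 0.83 and a spread of 2.28. LOC606424 (qsox1) had r = 0.81 and LOC732792 (crp1) had r = 0.81, with spreads of 3.22 and 3.69. These genes were named after their values were seen.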
